A study of Mus musculus with 7 samples.

Results

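A set of 10 genes used as readouts of glucocorticoid action was followed in the livers of fasted mice that carry a mutation of the transcription factor Sox17. They were chosen by name among the gene names of the array (Tat, Fkbp5, Tsc22d3, Sgk1, Mt1, Mt2, Zbtb16, Gadd45b, Cdkn1a and the receptor gene Nr3c1). The rule matches names and uses no measured value, but the names were picked with earlier results of these data known. All 10 are among the 36492 gene names on the array. They were read by 13 probes in 22 spots, and all 10 passed the filter on dim signals described below. Livers came from 3 WT and 4 SHIVA mice, all female, C57BL/6, 8 to 12 weeks old and fasted for 24 h, with 1 array per mouse. SHIVA mice descend from a chemical mutagenesis screen and carry a missense change in the DNA-binding HMG domain of Sox17, in every tissue. The labels give the genotype only as a Sox17 mutation. The study's methods state that viable mutants were heterozygous, that the line was bred repeatedly to C57BL/6, and that only the mapped end of chromosome 1 was resequenced, so that other induced variants were not surveyed genome-wide. Fed livers were not analysed here, so every value below is a level in the fasted state and not a response to fasting.

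Glucocorticoids are adrenal steroids that rise in blood during fasting and enter hepatocytes, where they bind the glucocorticoid receptor. The receptor, held ready in the cytoplasm by heat shock proteins, then moves to the nucleus and binds palindromic DNA elements, from which it raises the transcription of enzymes of amino acid breakdown and glucose production and of genes that limit its own signal. Most of the 10 genes also answer to other signals, such as inflammation, metals, insulin or DNA damage.

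Each array gave one fluorescence intensity per spot, and the values below are log2 intensities after quantile normalization over the 7 arrays. A level can be compared between mice for the same probe, but not between genes. Between 44.5% and 48.75% of the 55681 probes were well above background per array and 0 spots were saturated. Testing used limma over 20002 genes, those with a probe above background on 3 or more arrays, and called a gene when its p, adjusted by Benjamini-Hochberg, was under 0.05. Sox17 itself, on chromosome 1, had low signal and a log2 fold change of SHIVA over WT of 0.69 with overlapping values (standard error, SE, of 0.25, limma adjusted p = 0.279). The 6 hepatocyte markers examined (Alb, Ttr, Apoa1, Apoc3, Cyp2e1 and Serpina1c) were above background on every array, with a median log2 fold change of -0.22 and 0 called. Of them 3, or 50%, were lower in every SHIVA liver, beside 6.02% of all genes tested. An unadjusted p under 0.05 was seen for 2, or 33.3%, beside 13.3% of all genes tested. A single slide carried all 7 arrays, WT in one row and SHIVA in the other, so row and genotype cannot be told apart. In whole liver, fewer cells of a type and less RNA per cell cannot be told apart either.

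DNA upstream of the transcription start could be read for 8 of the 10 genes, in 16 windows of 250 bases from the RefSeq annotation of GRCm38.p6. The palindrome bound by the receptor was searched as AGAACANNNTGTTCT on both strands. It lay in 1 of the 16 windows, that of an Sgk1 start, and in 0.00913% of all 32851 windows of this length. Its single arm, AGAACA, lay in 4 of the 16 windows and in 16.1% of all windows. These 4 belong to Sgk1 and Tsc22d3 alone, and the window with the full palindrome is among them. Sgk1 has the most windows of the 8 genes. The core of the metal response element, searched as TGCACNC or TGCGCNC on both strands, lay only in the windows of Mt1 and Mt2 among the 16, and in 21.4% of all windows. The 3 windows with a full receptor palindrome or a metal core are printed here. Sgk1 is shown because it had the lowest limma p of the 10 genes, and Mt1 and Mt2 because they varied together from mouse to mouse. All 3 lie on the plus strand, run 5′ to 3′, end at the base before the start and have the matched motif in capitals. A match is a description of the letters and not evidence that the site is used in these livers. Only 250 bases before each start were read, so the lack of a match does not tell whether a gene has such an element elsewhere.
Sgk1, chr10:21993640-21993889, receptor palindrome beginning 189 bases before the start: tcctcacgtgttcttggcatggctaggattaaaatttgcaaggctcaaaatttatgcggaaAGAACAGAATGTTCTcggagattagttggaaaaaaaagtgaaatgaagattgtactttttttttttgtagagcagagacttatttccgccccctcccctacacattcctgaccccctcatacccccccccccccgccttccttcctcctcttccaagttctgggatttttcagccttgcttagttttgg
Mt1, chr8:94178839-94179088, metal core beginning 23 bases before the start: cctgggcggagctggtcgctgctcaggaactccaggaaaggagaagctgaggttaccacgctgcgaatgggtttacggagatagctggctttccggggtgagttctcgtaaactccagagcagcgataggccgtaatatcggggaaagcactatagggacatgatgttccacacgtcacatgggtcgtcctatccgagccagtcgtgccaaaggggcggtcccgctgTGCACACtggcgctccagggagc
Mt2, chr8:94172368-94172617, metal cores beginning 223, 128 and 50 bases before the start: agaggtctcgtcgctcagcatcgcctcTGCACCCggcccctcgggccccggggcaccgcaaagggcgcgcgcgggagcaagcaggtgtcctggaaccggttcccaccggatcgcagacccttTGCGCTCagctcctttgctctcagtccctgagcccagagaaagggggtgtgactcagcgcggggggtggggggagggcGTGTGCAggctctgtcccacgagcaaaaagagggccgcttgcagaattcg

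No member of the set was called after adjustment over all genes (0 of 10 with limma, against 0.375% of all genes tested), and the methods' t-test also called 0 after adjustment. At an unadjusted p under 0.05 limma gave 5 of the 10, namely Sgk1, Tsc22d3, Gadd45b, Cdkn1a and Zbtb16, against 13.3% of all genes tested. The same 5 lay outside the log2 fold changes of -0.79 to 0.86 that hold the middle 95% of all genes tested. They did not share a direction. Sgk1 and Tsc22d3 had higher mean values in SHIVA livers, and Gadd45b, Cdkn1a and Zbtb16 had lower ones. Over the 10 genes 4 log2 fold changes were positive and 6 negative, with a median of -0.16 beside -0.01 for all genes tested. The median size of the change, regardless of sign, was 0.72 beside 0.19 for all genes tested. These comparisons with all genes are descriptive, since the 10 genes were picked with earlier results of these data known. WT and SHIVA values did not overlap for 2 of the 10 genes, Sgk1 and Nr3c1, both higher in every SHIVA liver, where 6.14% of all genes tested were separated in that direction, 6.02% in the other and 12.2% in either.

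**Figure D1:**
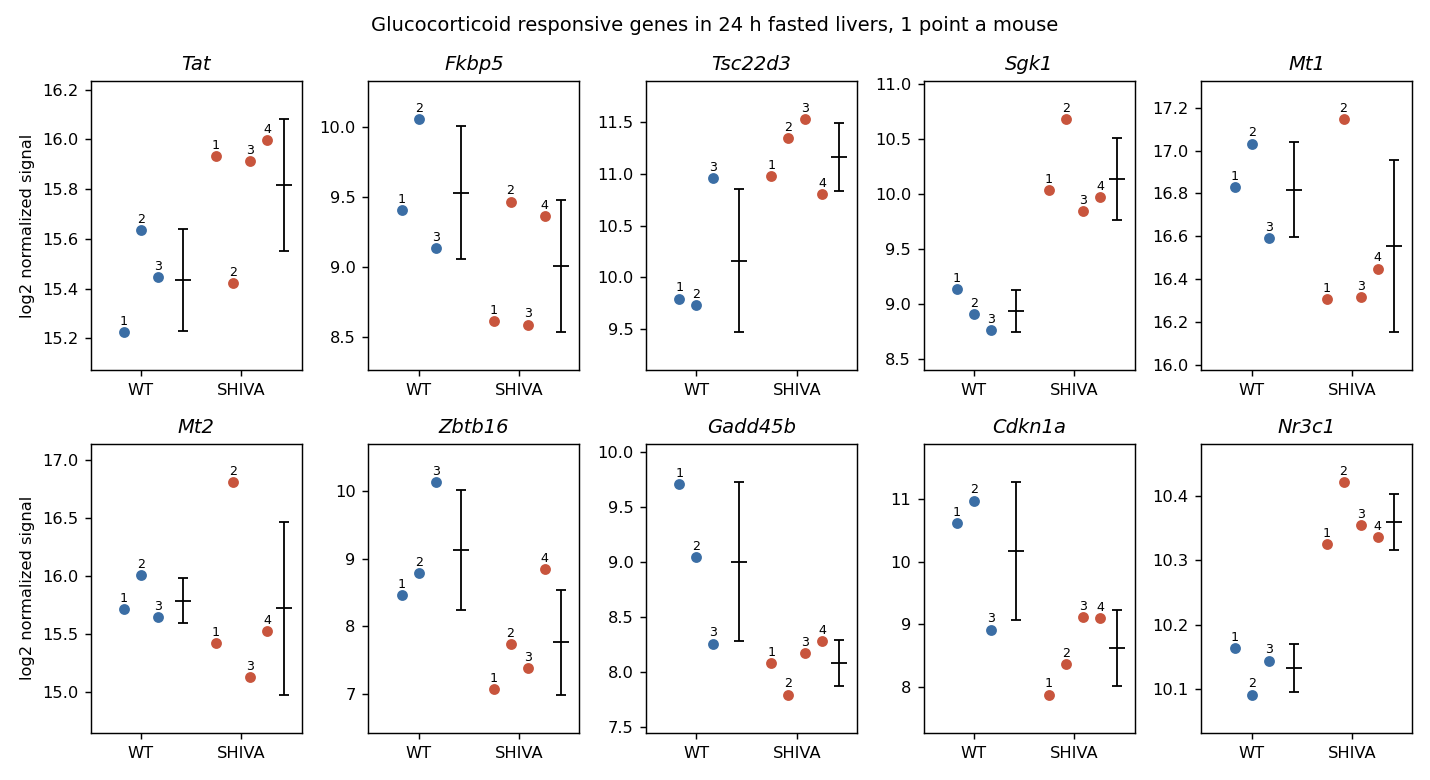
Log2 normalized signal (y axis, a scale of its own for each gene) of the 10 genes in each WT (blue) and SHIVA (red) liver, numbered by replicate, with the mean and SD of each genotype as a bar beside the points (n = 3 and n = 4). Sgk1 and Nr3c1 are the genes without overlap, and WT replicate 3 sits among or beside the SHIVA livers for Tsc22d3, Gadd45b and Cdkn1a.

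**Figure D2:**
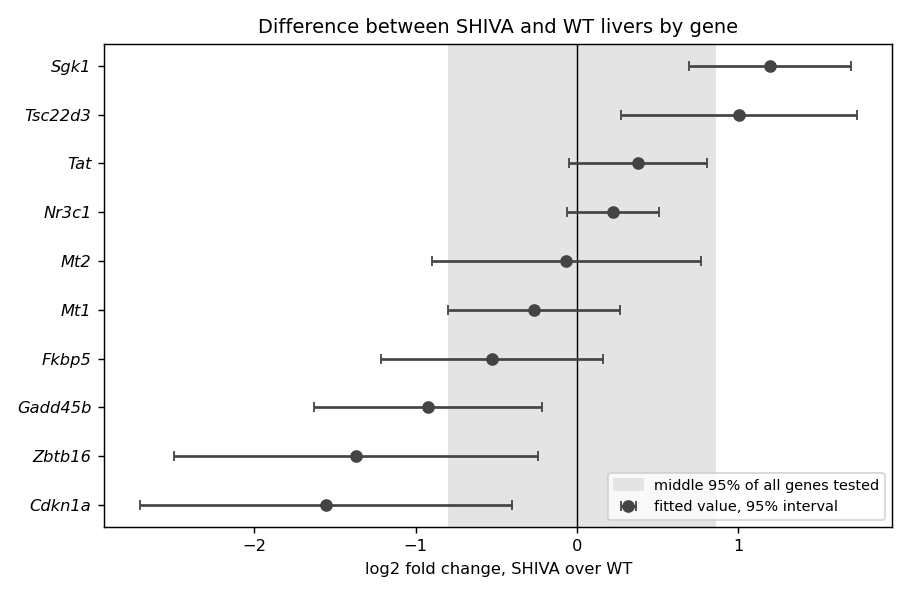
Log2 fold change of SHIVA over WT (x axis) for each gene, with its 95% interval from limma (bars), over the range that holds the middle 95% of all genes tested (grey). Cdkn1a (-1.56), Zbtb16 (-1.37), Gadd45b (-0.92), Tsc22d3 (1.01) and Sgk1 (1.20) have their points outside the grey range, and none of the 10 passed the adjusted threshold.

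Sgk1 encodes a kinase first found as induced by serum and glucocorticoids, which acts on ion transport and on the FoxO factors. Its probe lies on chromosome 10 of mm9 from 21719507 to 21719566. The log2 signal was 9.13, 8.91 and 8.76 in WT replicates 1 to 3, and 10.03, 10.68, 9.85 and 9.97 in SHIVA replicates 1 to 4. Every SHIVA liver was above every WT liver. The means of 8.93 ± 0.19 (SD, n = 3) and 10.13 ± 0.37 (SD, n = 4) differed by a log2 fold change of 1.20, which is 2.30-fold, with a 95% interval of 1.62- to 3.25-fold. The gene ranked 128 of 20002 by unadjusted p, and its adjusted p of 0.0747 from limma did not pass. It did pass on the authors' own normalized table, where the log2 fold change was 1.13 (limma adjusted p = 0.0439), and when only probes above background on all 7 arrays were tested (limma adjusted p = 0.0478). Over all alternatives its adjusted p ran from 0.0242 with array weights to 0.283 with the methods' t-test, the latter also Benjamini-Hochberg adjusted. The array weights leaned on 1 mouse, SHIVA replicate 1, at 4.11 beside 0.46 to 1.49 for the other mice. SHIVA replicate 2 had the highest Sgk1 signal, and without that mouse the log2 fold change was 1.02 (limma adjusted p = 0.0731). Its relatives Sgk2 and Sgk3 had log2 fold changes of -0.29 and -0.01 and overlapping values.

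Tsc22d3 encodes GILZ, a leucine zipper protein that carries part of the anti-inflammatory action of glucocorticoids and is a direct receptor target in many tissues. It was read on the X chromosome from 137074094 to 137074153. Its log2 signal was 9.79, 9.73 and 10.96 in WT replicates 1 to 3, and 10.98, 11.35, 11.53 and 10.81 in SHIVA replicates 1 to 4. WT replicates 1 and 2 lay below all SHIVA livers, while WT replicate 3 lay above SHIVA replicate 4. SHIVA over WT gave a log2 fold change of 1.01 (SE 0.32, limma adjusted p = 0.239), or 2.01-fold with a 95% interval of 1.21- to 3.33-fold. Without WT replicate 3 it was 1.40 (limma adjusted p = 0.0327), in a fit that called 1.98% of all genes tested. Of the related genes Tsc22d1 and Tsc22d4, Tsc22d1 measured lower in all SHIVA than in all WT livers (log2 fold change -0.53, limma adjusted p = 0.264) and Tsc22d4 had a value of 0.46 with overlap.

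Fkbp5 encodes a co-chaperone of the receptor that lowers its affinity for hormone, so that its induction forms a negative feedback, and it is among the most widely used readouts of receptor activity. Its probe lies on chromosome 17 from 28536060 to 28536119. The log2 signal was 9.40, 10.06 and 9.14 in WT replicates 1 to 3, and 8.61, 9.47, 8.59 and 9.36 in SHIVA replicates 1 to 4. SHIVA replicates 1 and 3 lay below all WT livers, and replicates 2 and 4 lay within the WT range. The log2 fold change of -0.52 (SE 0.30, limma adjusted p = 0.509) had a 95% interval from -1.21 to 0.17. It was -0.26 without WT replicate 2 (limma adjusted p = 0.870) and -0.96 with array weights (limma adjusted p = 0.103). Fkbp4, the co-chaperone of opposite action, had a log2 fold change of -0.19.

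Zbtb16 encodes the zinc finger factor PLZF, which glucocorticoids induce strongly in several cell types. It was read on chromosome 9 from 48462419 to 48462478. Its log2 signal was 8.46, 8.79 and 10.14 in WT replicates 1 to 3, and 7.07, 7.73, 7.39 and 8.85 in SHIVA replicates 1 to 4. SHIVA replicates 1 to 3 lay below all WT livers, but SHIVA replicate 4 lay above WT replicates 1 and 2. The log2 fold change of -1.37 (SE 0.50, limma adjusted p = 0.284) corresponds to a 2.58-fold higher WT mean, and it was -0.86 without WT replicate 3, the highest mouse, and -1.73 without SHIVA replicate 4. Both genotypes were widely spread for this gene, with SDs of 0.89 and 0.77, each larger than those of at least 97% of all genes tested.

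Tat encodes tyrosine aminotransferase, the first enzyme of tyrosine breakdown and the classical glucocorticoid-induced gene of hepatocytes. Its probe lies on chromosome 8 from 112523207 to 112523266. The log2 signal was 15.23, 15.64 and 15.45 in WT replicates 1 to 3, and 15.93, 15.42, 15.91 and 15.995 in SHIVA replicates 1 to 4. SHIVA replicates 1, 3 and 4 lay close together above all WT livers, and SHIVA replicate 2 lay within the WT range. The log2 fold change of 0.38 (SE 0.19, limma adjusted p = 0.433) was 1.30-fold, with a 95% interval of 0.968- to 1.75-fold, and without SHIVA replicate 2 it was 0.51 (limma adjusted p = 0.300).

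Mt1 and Mt2 encode the metallothioneins of liver, small cysteine-rich proteins that bind zinc and copper and are induced by metals, glucocorticoids and inflammatory cytokines. The genes are neighbours on chromosome 8, where the probes lie from 96704165 to 96704224 and from 96697371 to 96697430. The 60-base probes share no run longer than 7 bases. The log2 signal of Mt1 was 16.83, 17.03 and 16.59 in WT replicates 1 to 3, and 16.30, 17.15, 16.31 and 16.45 in SHIVA replicates 1 to 4. That of Mt2 was 15.71, 16.01 and 15.64 in WT replicates 1 to 3, and 15.42, 16.81, 15.13 and 15.52 in SHIVA replicates 1 to 4. For both genes SHIVA replicate 2 was the highest of all 7 mice and the other SHIVA livers were below all WT livers. The log2 fold change was -0.26 for Mt1 (limma adjusted p = 0.689) and -0.07 for Mt2 (limma adjusted p = 0.960), with 95% intervals from -0.80 to 0.27 and from -0.90 to 0.77. Without SHIVA replicate 2 they were -0.46 and -0.43, also short of the threshold (limma adjusted p = 0.345 and 0.398), and leaving out other mice turned the sign of Mt2. Mt1 was at -0.16 without WT replicate 2, at -0.10 on the authors' table and at -0.51 with array weights, and Mt2 was at -0.16 on that table and at -0.40 with array weights, none of them called. SHIVA replicate 2 also had the highest mean of the acute phase genes described below. Among them Saa1, a serum amyloid gene, measured 17.73 there, between 12.82 and 13.97 in the other SHIVA livers and between 11.44 and 13.18 in WT livers. The part of the acute phase in the values of Mt1 and Mt2 was not tested.

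Among 7 further genes of metal handling, which did not include Mt1 and Mt2, 0 were called. Of them 2, or 28.6%, had an unadjusted p under 0.05, beside 13.3% of all genes tested. All 7 log2 fold changes were positive, from 0.08 to 0.60 with a median of 0.26. The largest were those of the zinc and iron importer Slc39a14 (0.60, limma adjusted p = 0.307), of Mtf1, the factor that binds metal response elements (0.46, limma adjusted p = 0.297), and of the heme oxygenase gene Hmox1 (0.45, limma adjusted p = 0.454). Only Mtf1 had no overlap between the genotypes (14.3% of the 7 genes, beside 12.2% of all genes tested). The fitted values of Mt1 (-0.26, limma adjusted p = 0.689) and Mt2 (-0.07, limma adjusted p = 0.960) were below 0, but neither gene was called. The sign of Mt2 turned in 5 of 17 alternatives. Mt3, a further metallothionein gene, had a log2 fold change of -0.15 with overlap. The part of metals in the values of Mt1 and Mt2 was not tested.

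Gadd45b and Cdkn1a encode regulators of growth arrest: a stress protein that binds MAP kinase kinases and, for Cdkn1a, the cyclin-dependent kinase inhibitor p21. Both can be induced by glucocorticoids. Gadd45b, on chromosome 10 from 80394367 to 80394426, measured, as log2 signal, 9.71, 9.04 and 8.26 in WT replicates 1 to 3, and 8.08, 7.79, 8.17 and 8.28 in SHIVA replicates 1 to 4. WT replicates 1 and 2 were above all SHIVA livers, and WT replicate 3 lay within the SHIVA range. For Gadd45b the log2 fold change was -0.92 (SE 0.31, limma adjusted p = 0.257), with a 95% interval from -1.63 to -0.22. Without WT replicate 3 it was -1.29 (limma adjusted p = 0.0421), and without WT replicate 1 it was -0.57 (limma adjusted p = 0.529). The related Gadd45a had a log2 fold change of -0.66 (limma adjusted p = 0.386) and Gadd45g one of 0.09.

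Cdkn1a, on chromosome 17 from 29237377 to 29237436, measured, as log2 signal, 10.62, 10.98 and 8.92 in WT replicates 1 to 3, and 7.88, 8.37, 9.12 and 9.10 in SHIVA replicates 1 to 4. As for Gadd45b, WT replicates 1 and 2 were above all SHIVA livers and WT replicate 3 lay within their range. Its log2 fold change of -1.56 (SE 0.51, limma adjusted p = 0.249), or a 2.94-fold higher WT mean, was the largest in size of the 10 genes and exceeded that of 99.2% of all genes tested. Without WT replicate 3 it was -2.18 (limma adjusted p = 0.0360). The 10 spots of this probe on each array had SDs of 0.0364 to 0.0767, while the WT livers spanned 2.06 and the SHIVA livers 1.24 on the log2 scale. Another probe, from 29235299 to 29235358, put the 7 mice in the same order (log2 fold change -1.30), and the remaining one, from 29227986 to 29228045, was above background on no array. Of 9 tested genes induced by p53, which also drives Cdkn1a, 0 were called. Of them 2, or 22.2%, had an unadjusted p under 0.05, beside 13.3% of all genes tested. Positive values were seen for 5 and negative values for 4, with a median of 0.11. The largest in size were Trp53inp1 (0.90, limma adjusted p = 0.176) and Btg2 (0.68, limma adjusted p = 0.262), both higher in every SHIVA liver. Next came Gadd45a (-0.66, limma adjusted p = 0.386), with overlap and with the sign of Cdkn1a. The part of p53 in the values of Cdkn1a was not tested. The relatives Cdkn1b and Cdkn1c had log2 fold changes of 0.06 and -0.19.

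Nr3c1 encodes the glucocorticoid receptor itself. Its main probe, on chromosome 18 from 39571641 to 39571700, gave a log2 signal of 10.16, 10.09 and 10.14 in WT replicates 1 to 3, and of 10.33, 10.42, 10.35 and 10.34 in SHIVA replicates 1 to 4. The genotypes did not overlap, but the difference was small. A log2 fold change of 0.23 corresponds to 1.17-fold, with a 95% interval of the log2 value from -0.06 to 0.51. The SDs of 0.037 in WT and 0.043 in SHIVA livers were each below those of all but 1.6% of genes tested. Limma, which draws such small variances towards those of other genes, gave an unadjusted p of 0.105 and an adjusted p of 0.488 by Benjamini-Hochberg. The methods' t-test, which does not, gave an unadjusted p of 0.000775, its lowest among the 10 genes. Its adjusted p was 0.192 over all genes, also above the threshold. Another probe, from 39574183 to 39574242, gave 0.25 (limma adjusted p = 0.611 over single probes), with overlap.

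The 10 genes also differed in how single mice behaved. WT replicate 3 lay within the SHIVA range for 7 of the 10 genes, beside 4 each for WT replicates 1 and 2, where the shares over all genes tested were 55.9%, 44.5% and 47.1%. SHIVA replicates 1 to 4 lay within the WT range for 0, 2, 1 and 5 of the 10 genes. The shares over all genes tested were 50.5%, 41.2%, 48.8% and 55.2%. SHIVA replicate 2 had the highest value of all mice for 4 genes (Sgk1, Mt1, Mt2 and Nr3c1) and the lowest for Gadd45b. Within WT livers 5 of the 10 genes had an SD above the median of all genes tested, and within SHIVA livers 8 had. For 9 genes the sign of the log2 fold change stayed the same when each mouse was left out in turn, Mt2 being the exception. With a mouse left out, 3 of the 10 genes were called without WT replicate 3 and 0 without any other mouse. Over all genes tested, 397 or 1.98% were called without WT replicate 3 and 4 to 50 genes without any other mouse. The 3 were Tsc22d3, Gadd45b and Cdkn1a.

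**Figure D3:**
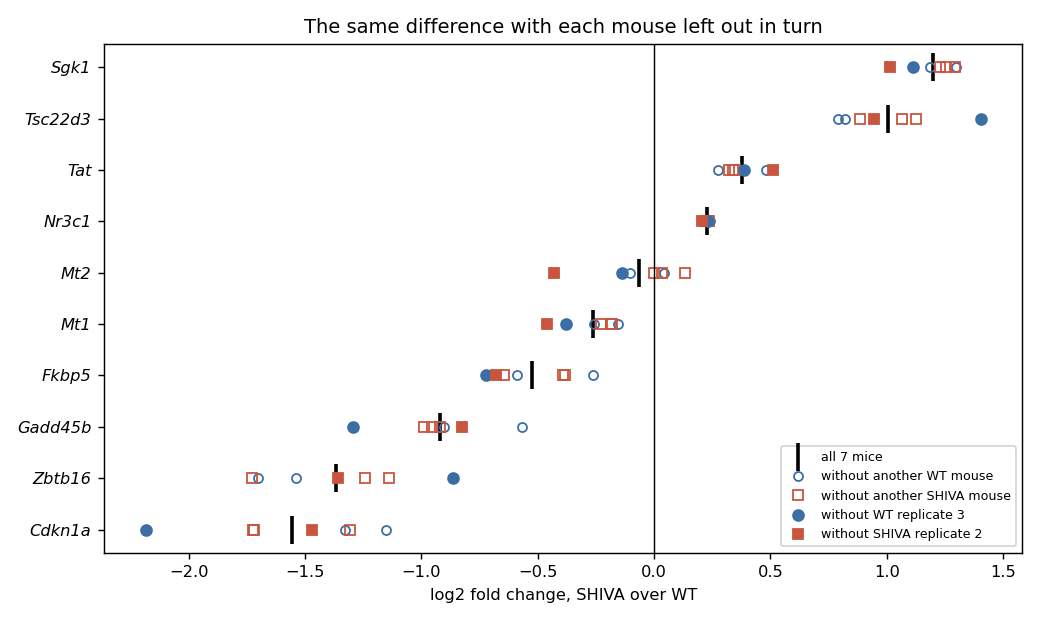
Log2 fold change of SHIVA over WT (x axis) for each gene with all 7 mice (black bar) and with each mouse left out in turn, WT mice as blue circles and SHIVA mice as red squares, with WT replicate 3 and SHIVA replicate 2 filled. Leaving out WT replicate 3 moves Cdkn1a from -1.56 to -2.18 and Zbtb16 from -1.37 to -0.86, and leaving out SHIVA replicate 2 moves Mt2 from -0.07 to -0.43.

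Genes that hold the receptor in its hormone-binding state or work with it on DNA had small log2 fold changes. Of 12 such genes, among them the heat shock proteins Hsp90aa1 and Hsp90ab1 and the coactivators Ncoa1 and Ncoa2, 0 were called and 0 were without overlap. An unadjusted p under 0.05 was seen for 1, or 8.33%, beside 13.3% of all genes tested. The median log2 fold change was 0.06. The lowest value was that of the corepressor Nrip1 (-0.54, limma adjusted p = 0.343), followed by the corepressor Ncor1 (-0.33, limma adjusted p = 0.706), whose lowest value, 8.66, was that of SHIVA replicate 2 and whose other SHIVA values were 9.72 to 9.93. Nr3c2, the mineralocorticoid receptor gene, was above background in 1 of 3 WT and 4 of 4 SHIVA livers, at low signal.

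Of the genes that set the local supply of hormone, 6 of 7 were tested and 0 were called, with a median log2 fold change of 0.43. An unadjusted p under 0.05 was seen for 2, or 33.3%, beside 13.3% of all genes tested. No overlap was seen for 1, or 16.7%, beside 12.2% of all genes tested. Srd5a1, a steroid reductase that starts the clearance of glucocorticoids, measured 8.99, 9.38 and 9.15 in WT replicates 1 to 3, and 10.07, 9.86, 10.04 and 10.40 in SHIVA replicates 1 to 4. It was higher in every SHIVA liver, with a log2 fold change of 0.92 (SE 0.18, limma adjusted p = 0.0855), and it passed on the authors' table (0.82, limma adjusted p = 0.0472), with the mean signal and with array weights. Serpina6, which encodes the corticosteroid-binding globulin that liver releases into blood, measured 11.94, 12.23 and 13.62 in WT replicates 1 to 3, and 13.58, 13.17, 13.79 and 13.32 in SHIVA replicates 1 to 4. WT replicate 3 alone lay within the SHIVA range, and the log2 fold change of 0.87 (limma adjusted p = 0.370) became 1.39 without that mouse (limma adjusted p = 0.0301). Abcb1a, a pump that exports steroids among other substrates, had one of 0.69 (limma adjusted p = 0.377). Hsd11b1, the enzyme that regenerates active corticosterone inside hepatocytes and was added here for that role after its values were seen, had one of -0.21 with overlap (limma adjusted p = 0.596). Hsd11b2, which inactivates the hormone, was above background on no array.

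Beyond the 10 genes, 27 others known to be induced by glucocorticoids were measured, among them enzymes of glucose production, regulators of inflammation and clock genes. None was called (0 of 27 with limma), and 9, or 33.3%, had an unadjusted p under 0.05, beside 13.3% of all genes tested. The median log2 fold change of the 27 genes was 0.15, with 16 positive and 11 negative values. No overlap between WT and SHIVA was seen for 7 of them, or 25.9%, beside 12.2% of all genes tested, and these 7 again lay on both sides. Higher in every SHIVA liver were Tnfaip3, an inhibitor of NF-kB signaling (0.97, limma adjusted p = 0.192), and, named after their values were seen, Errfi1, an inhibitor of EGF receptor signaling (0.62, limma adjusted p = 0.121), and the serine dehydratase gene Sds (0.56, limma adjusted p = 0.238). Lower in every SHIVA liver were Pdk4, a kinase that shuts off pyruvate dehydrogenase (-1.50, limma adjusted p = 0.189), and, likewise named after their values were seen, the glutamine synthetase gene Glul (-0.78), the factor gene Klf9 (-0.72) and Angptl4, an inhibitor of lipoprotein lipase (-0.61). Pdk4 and Angptl4 are targets of PPARα as well. Pdk4 measured 9.34, 10.04 and 8.41 in WT replicates 1 to 3, and 7.41, 8.20, 7.24 and 8.21 in SHIVA replicates 1 to 4, so that WT replicate 3 was the WT liver closest to the SHIVA livers. Pck1 and G6pc, the enzymes of glucose production most often named with glucocorticoids and added here for that reason after their values were seen, had log2 fold changes of 0.28 and 0.16, with overlap.

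**Figure D4:**
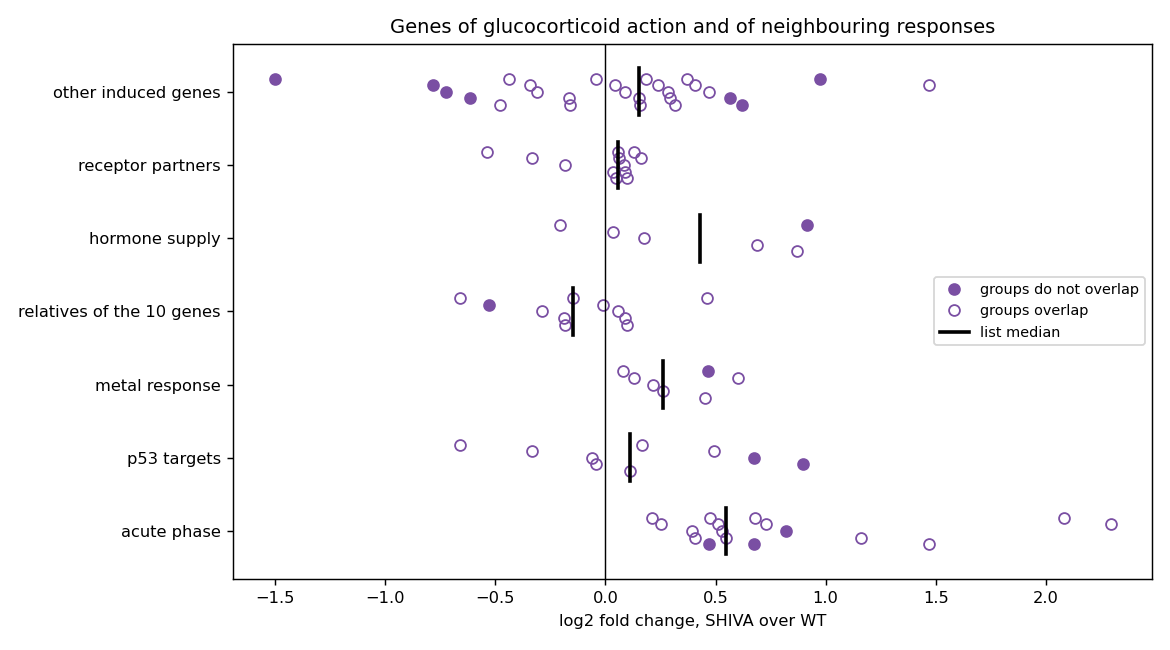
Log2 fold change of SHIVA over WT (x axis) for each tested gene of 7 lists (rows), with filled points for genes whose WT and SHIVA values did not overlap and a bar at each list's median. Induced genes lie on both sides of 0, from -1.50 to 1.47, and receptor partners lie between -0.54 and 0.16, while all 17 acute phase genes lie above 0.

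Acute phase genes and markers of other cells were read beside these values. All 17 acute phase genes tested had positive log2 fold changes, with a median of 0.55, and 0 of them were called. An unadjusted p under 0.05 was seen for 8, or 47.1%, beside 13.3% of all genes tested. Of the 17 genes 3, or 17.6%, were without overlap, beside 12.2% of all genes tested. Their mean log2 signal ran from 12.4 to 12.9 in WT and from 12.8 to 14.2 in SHIVA livers. The largest were Saa2 (2.29), Saa1 (2.08) and Lcn2 (1.47), which is also glucocorticoid-induced, and in each SHIVA replicate 2 had the highest value of all 7 mice. All 6 neutrophil markers had positive values too, but Ngp and Ltf were above background in 0 of 3 WT and 3 of 4 SHIVA livers. Both passed the filter on dim signals through SHIVA livers alone, so their sign carries no weight. S100a8, S100a9 and Camp had log2 fold changes of 1.02, 1.04 and 1.13, with overlap. Retnlg had one of 0.53, also with overlap. It was above background in 1 of 3 WT and 3 of 4 SHIVA livers, so SHIVA livers alone would have sufficed for the filter. The list mean, which includes Ngp and Ltf, was 4.69 to 5.68 in WT and 4.14 to 7.33 in SHIVA livers, SHIVA replicate 4 being the lowest. The 6 macrophage markers, also all positive, had means of 10.47 to 11.6 and of 11.1 to 12.0. The 6 lymphocyte and 6 endothelial markers had median log2 fold changes of 0.12 and 0.11, the 4 tested bile duct markers one of -0.64 and the 2 tested red cell markers one of 0.53. Of 5 pancreas markers 1 and of 4 adipose markers 0 passed the filter on dim signals. Sgk1 and Tsc22d3 are expressed in blood cells as well as in hepatocytes. The part of other cell types and of the acute phase in the values of the 10 genes was not tested.

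The 11 tested relatives of the 10 genes, most of them named above, had a median log2 fold change of -0.15, with 4 positive and 7 negative values. None was called (0 of 11 with limma), and 1, or 9.09%, had an unadjusted p under 0.05, beside 13.3% of all genes tested. Tsc22d1 was the 1 gene without overlap, or 9.09%, beside 12.2% of all genes tested.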

How the data were processed

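Livers of 3 WT and 4 SHIVA mice were hybridized singly to 1-colour Agilent arrays. The authors deposited the intensity of each spot, which the submitters' processing notes credit to Agilent Feature Extraction 10.5.1.1 and which was detrended within each array, with low signals replaced by surrogates, but not scaled across arrays. A second deposited file holds log2 values that the authors quantile normalized in R. On every array it ranks spots as their mean signal does (rank correlation 1).

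The processed intensities of non-control spots were quantile normalized over the 7 arrays and log2 transformed, leaving out the 120 to 163 spots per array flagged as non-uniform or as outliers. This treatment assumes the same distribution of signal in all livers. Spots of a probe were averaged, and each gene was represented by its brightest probe over all arrays. Names were updated through RefSeq accessions of GRCm38.p6 for 26413 of 55681 probes, while the 10 genes were matched by their array names. Positions are those the array design gives on mm9, and exon or UTR annotation of that build was not used here. Genes above background on at least 3 arrays were fitted with limma 3.58.1 in R 4.3.3 (linear model, empirical Bayes, genotype as the only term), with a threshold of 0.05 after Benjamini-Hochberg adjustment. For the arrays the study's methods describe gene set enrichment and no test of single genes. The unpaired t-test they name in general was run as an alternative. The fit was also run on simulated data, and no outcome of that run is used here. The number of arrays limits the precision. The p-values set the difference between genotypes against the spread between these mice, which limma draws towards that of other genes.

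The 10 genes and the lists were chosen with earlier results of these data known. Genes named in the text are the 10, Sox17, any listed gene that passed and the 3 with the largest log2 fold change in each list. Others are marked as named after their values were seen, or are relatives of the 10 genes and list members given as examples. Alternatives were scaling to the 75th percentile, normexp (offset 50), the mean signal, the authors' table, other filters on dim probes, the mean of all probes, single probes, array weights, a block for the replicate number, and each mouse left out. The slide could not be fitted, since 1 slide holds all arrays.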

Additional observations from a re-analysis of the deposited data

Results flagged for a closer look

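Tat was the 1 value among 17 searched (the 10 genes and the means of 7 lists) in which a SHIVA mouse lay far from the other SHIVA mice (Dixon's ratio of the gap to the range, at its 95% critical value). SHIVA replicate 2 had a log2 signal of 15.42, and the other SHIVA livers had 15.91 to 15.995, a gap of 0.854 of the range. Chance gives such a mouse in about 1 of 20 values. Tat was not alone in setting SHIVA replicate 2 apart. For Mt1 this mouse, there the highest, fell only just short of the critical value. It was also the highest for Sgk1 and Mt2, with gaps of 0.774 and 0.765 of the range, below the critical value. With 3 animals, WT livers were not searched.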

How the results depend on the processing

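The count of all genes called, 75, was 142 with the mean signal and 142 on the authors' table, 13 without a filter on dim probes, 0 with the methods' t-test (2299 at an unadjusted p under 0.05), 392 with array weights and from 4 (without WT replicate 1) to 397 (without WT replicate 3) with a mouse left out. The number of the 10 genes called, 0, was 1 (Sgk1) with the mean signal, on the authors' table, with probes above background on all 7 arrays and with array weights, where its log2 fold change was 1.13, 1.13, 1.20 and 1.104, and ran from 0 to 3 with a mouse left out. Scaling to the 75th percentile, normexp, the mean of all probes and the block left it at 0. The fit with array weights leaned on SHIVA replicate 1, with a weight of 4.11 beside 0.46 to 1.49 for the other mice. With a mouse left out the log2 fold change of Sgk1 ran from 1.02 to 1.30, of Tsc22d3 from 0.79 to 1.40, of Gadd45b from -1.29 to -0.57, of Cdkn1a from -2.18 to -1.15 and of Mt2 from -0.43 to 0.13. Mt2 turned its sign in 4 of these fits, at values of at most 0.13. It did so with the block too, which gives the same log2 fold changes as leaving out SHIVA replicate 4. The other 5 genes kept their sign and did not pass under any alternative. The count of further listed genes called, 0, was 1 (Errfi1) with normexp, 2 (Errfi1 and Srd5a1) with the mean signal and 2 on the authors' table, 4 with array weights (Il1rn, Pdk4, Srd5a1 and Tnfaip3) and from 0 to 3 (Il1rn, Pdk4 and Serpina6, without WT replicate 3) with a mouse left out. These counts were added after the data were seen. Over the 10 genes and all alternatives 160 values kept their side of the threshold and their sign, 7 newly passed and 5 turned. The cause of these shifts was not tested.

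The replicate numbers of WT and SHIVA mice do not mark shared litters or days in the labels. Deviations of same-numbered mice correlated at -0.049, 0.013 and 0.236 over genes, and 1 of 3 WT mice was closest to the SHIVA mouse of its number. With the replicate number as a block, 32 genes were called and 0 of the 10, and Mt2 had a log2 fold change of 0.0002. SHIVA replicate 4 has no WT mouse of its number, so it adds nothing to the log2 fold changes of this fit.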
